A study of Mus musculus with 6 samples.

Results

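The Hox genes encode homeodomain transcription factors that give cells their position along the head to tail axis of the embryo. They were taken here as the probe sets whose only gene symbol is that of a gene in the Hoxa, Hoxb, Hoxc or Hoxd cluster. There were 37 such genes, each with exactly 1 probe set, among 19938 genes measured in all. Hoxb8 shares its probe set with Hoxb7 and was not counted. The 37 genes comprise 10 of the Hoxa cluster and 9 of each other cluster.

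Genes of each cluster lie in a row and are numbered in that order, and genes of different clusters with the same number are paralogs, descended from 1 ancestral gene. In the embryo, low-numbered genes act early and far forward, in the hindbrain, and high-numbered genes act later, in the trunk, limbs and tail. In pluripotent cells Hox clusters are known to be held silent by Polycomb complexes, and retinoic acid is a textbook inducer of the genes at the low-numbered (3′) end.

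The study profiled total RNA of mouse induced pluripotent stem cells (iPSCs, fibroblasts reprogrammed to pluripotency) on 6 Affymetrix gene arrays, 3 of naive and 3 of primed cultures. Naive cells grew with LIF (leukaemia inhibitory factor, which sustains the naive state) at 1000 U/ml and 15% serum, and no strain, sex or genotype is given. Primed cells grew on feeders or Matrigel in medium conditioned by embryonic fibroblasts, with basic FGF at 8 ng/ml. The sample titles trace the naive lines to embryonic fibroblasts and the primed lines to adult dermal fibroblasts, whereas the source label traces all 6 samples to embryonic fibroblasts, so culture state and cell of origin cannot be told apart if the titles hold. What was repeated in the "biological" replicates is not stated, and p-values measure the spread between these samples only.

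All values are log2 values from robust multi-array averaging (RMA), and each difference is primed minus naive. Arrays of a group correlated at 0.998 to 0.999 over all probe sets, and arrays of different groups at 0.980. A group was counted as above background for a gene when each of its 3 arrays exceeded a cutoff, which was that array's 95th percentile over 1194 olfactory and vomeronasal receptor genes and lay between 6.96 and 7.02. Of 12 markers of pluripotent cells, including Pou5f1 and Sox2, 12 were above background in naive and 11 in primed cells, and 9 were higher in naive cells. The exception was Dppa5a, a naive-state gene, which fell by 1.51 (SE 0.11) to below the cutoff in primed cells with an adjusted p of 6.5e-07 (limma). Pou5f1 (-1.06, SE 0.06, limma adjusted p 5.9e-08), Nanog (-0.61, SE 0.05) and Sox2 (-0.52, SE 0.05) also had less RNA in primed cells, though above background. Fgf4 alone went the other way (0.17, SE 0.05), and 2 of the 12 did not pass. A changed level in such bulk samples can come from the number of expressing cells or from the RNA per cell, which cannot be told apart.

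Primed cells had more Hox RNA than naive cells, in a subset of the genes, of which 7 of 14 belonged to the Hoxa cluster. In limma's test over all genes, 14 of 37 Hox genes (37.8%) were higher in primed cells at an adjusted p under 0.05, 0 were higher in naive cells and 23 did not pass. At an unadjusted p under 0.05 in limma, 15 Hox genes were higher in primed cells and 1 in naive cells. Over all genes tested, 21.8% were higher in primed and 22.7% in naive cells. Among the 7602 genes whose mean value lay within the range of the Hox genes (5.88 to 8.47), 19.0% were higher in primed and 14.4% in naive cells. The median difference was 0.07 over the Hox genes and -0.00 over all genes. Every primed array lay above every naive array for 14 Hox genes (37.8%, against 25.9% of all genes), and the reverse held for 2, Hoxd9 and Hoxd13 (against 27% of all genes), neither of which passed the test. Most shifts were small: the measured difference reached 2-fold in Hoxa2 and Hoxa5 alone. Of all genes, 1.71% made such a change in that direction at an adjusted p under 0.05 in limma.

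Many Hox genes were at the level of the receptor genes that set the background. In naive cells 10 of 37 were above background and in primed cells 16, while 17 lay below the cutoff on all 6 arrays. Of all genes, 68.8% were above background in naive and 69.2% in primed cells. These counts depend on the cutoff: with the 90th percentile of receptor genes they were 24 and 28, and with the 99th percentile 3 and 5. Where the dimmest 40% of all genes were left out before the test, 6 Hox genes remained, of which 5 were higher in primed cells.

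**Figure D1:**
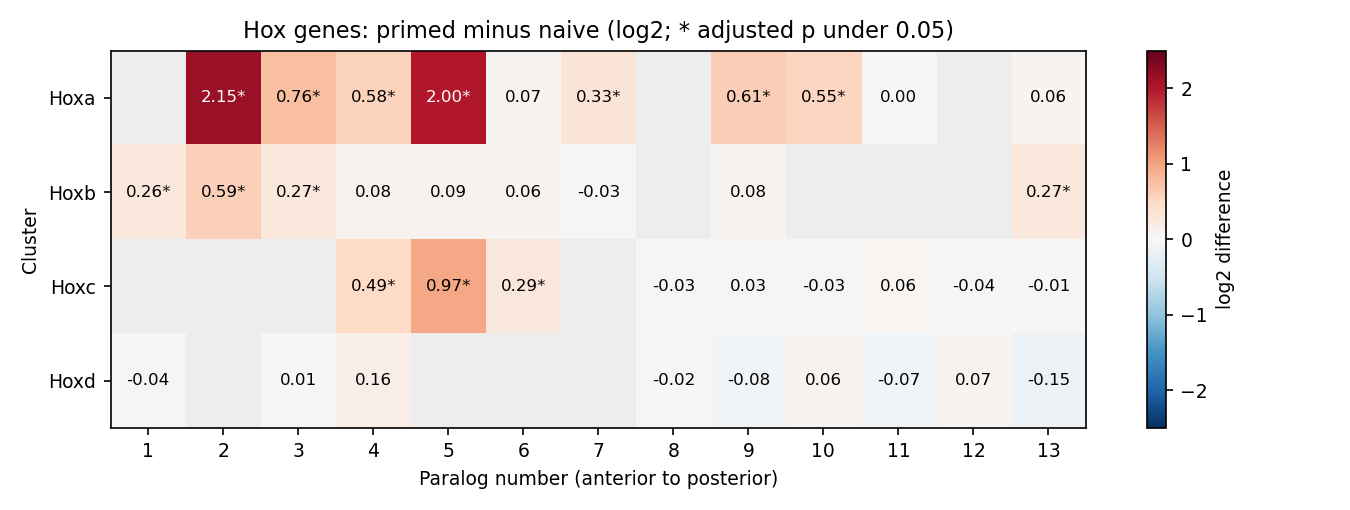
Difference between primed and naive cells (log2 RMA value, colour and printed number) for each of the 37 Hox genes, by cluster (rows) and paralog number (columns, 1 to 13); an asterisk marks an adjusted p under 0.05 in limma and grey cells have no value. The marked genes are 7 in the Hoxa row, 4 in the Hoxb row, 3 in the Hoxc row and 0 in the Hoxd row, with Hoxa2 (2.15) and Hoxa5 (2.0) the darkest.

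The clusters differed in how many of their genes passed, although the difference between clusters was not itself tested. The Hoxa cluster had 7 of 10 genes higher in primed cells with a median difference of 0.56, and the number above background went from 3 in naive to 8 in primed cells. In the Hoxb cluster 4 of 9 were higher (median 0.09), with 5 above background in each state. In the Hoxc cluster 3 of 9 were higher (median 0.03), with 0 above background in naive and 1 in primed cells. Of the Hoxd cluster 0 of 9 passed in either direction (median -0.02), and 2 were above background in each state. Averaged over its genes, the Hoxa cluster lay between 6.88 and 7.11 on naive and between 7.67 and 7.74 on primed arrays, without overlap, whereas the Hoxd average lay within 6.80 to 6.81 in naive cells and 6.72 to 6.85 in primed cells.

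By paralog number, the shares fell from the low-numbered to the high-numbered genes, although this trend was not itself tested. Of paralogs 1 to 4, 7 of 11 were higher in primed cells (median difference 0.27). Of paralogs 5 to 8 it was 4 of 10 (median 0.08), and of paralogs 9 to 13 it was 3 of 16 (median 0.04). This last share was near that of all genes (21.8%) and of genes within the Hox range of mean values (19.0%). The order was not uniform across clusters: paralogs 1 to 4 passed in 3 of 3 Hoxa and 3 of 4 Hoxb genes but in 0 of 3 Hoxd genes, and 2 of the 3 high-numbered genes that passed were Hoxa9 and Hoxa10. Both measured paralogs 2 (Hoxa2 and Hoxb2) and 2 of 3 paralogs 5 (Hoxa5 and Hoxc5) passed, whereas 0 of 2 paralogs 8, 0 of 3 paralogs 11 and 0 of 2 paralogs 12 did.

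Hoxa2, which patterns the second branchial arch and reaches further forward in the hindbrain than other Hox genes, was 1 of 2 Hox genes with a measured difference of at least 2-fold. Its values were 7.30, 6.88 and 7.05 on naive arrays 1, 2 and 3, and 9.06, 9.37 and 9.27 on primed arrays 1, 2 and 3. The groups were far apart, with 1 naive array under its cutoff and all primed arrays well over theirs. The means were 7.08 ± 0.21 and 9.23 ± 0.16 (SD, n = 3), a measured 4.45-fold difference (log2 2.15, SE 0.10, limma adjusted p 2.6e-08). The naive mean lay close to the cutoffs, so this fold is approximate. Leaving out single arrays kept the log2 difference between 2.06 and 2.27.

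Hoxa5, a gene of cervical vertebrae and lung development, rose from background. Its naive values were 6.80, 6.69 and 6.73, and its primed values 8.89, 8.73 and 8.61. All naive arrays were below the cutoff and the lowest primed array was clear of it. The means of 6.74 ± 0.06 and 8.74 ± 0.14 (SD, n = 3) differed by 2.0 on the log2 scale (SE 0.07, limma adjusted p 2.5e-09). Since the naive group was in background, this difference is no exact fold: set against the mean cutoff of the naive arrays, Hoxa5 was at least 3.34-fold higher in primed cells. The order of Hoxa2 and Hoxa5 by size of change is therefore not determined.

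Hoxa6 lies next to Hoxa5 and did not follow it. Its values were 7.35, 7.20 and 7.31 on naive and 7.31, 7.39 and 7.37 on primed arrays. The groups overlapped and both were above background, with a difference of 0.07 (SE 0.06, limma adjusted p 0.36). The RefSeq bounds of Hoxa3 contain or overlap Hoxa4, Hoxa5 and Hoxa6, and how the probe sets divide transcripts shared along this stretch was not examined.

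The promoters of these neighbours are printed because Hoxa2 and Hoxa5 moved together while Hoxa6, which adjoins Hoxa5, did not pass. Each is the stretch of 250 bases before the start of the gene, 5′ to 3′ on the gene's strand (minus), from RefSeq on GRCm38.p6. Capitals mark a match to any of 3 motifs searched on both strands: the TATA box TATAAA, the retinoid receptor half-site AGGTCA and the Pbx and Hox site TGATNNAT, none of which contains another.
Hoxa2, chr6:52164832-52165081: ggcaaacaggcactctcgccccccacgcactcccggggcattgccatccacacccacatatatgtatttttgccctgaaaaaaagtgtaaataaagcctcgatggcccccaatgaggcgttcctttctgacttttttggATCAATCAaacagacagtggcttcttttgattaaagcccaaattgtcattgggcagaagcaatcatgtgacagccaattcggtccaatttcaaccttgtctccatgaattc
Hoxa5, chr6:52204588-52204837: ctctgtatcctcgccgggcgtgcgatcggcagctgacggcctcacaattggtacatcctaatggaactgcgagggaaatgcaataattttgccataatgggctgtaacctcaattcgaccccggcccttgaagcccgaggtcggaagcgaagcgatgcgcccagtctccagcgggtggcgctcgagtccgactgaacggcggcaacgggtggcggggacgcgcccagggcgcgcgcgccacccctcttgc
Hoxa6, chr6:52208673-52208922: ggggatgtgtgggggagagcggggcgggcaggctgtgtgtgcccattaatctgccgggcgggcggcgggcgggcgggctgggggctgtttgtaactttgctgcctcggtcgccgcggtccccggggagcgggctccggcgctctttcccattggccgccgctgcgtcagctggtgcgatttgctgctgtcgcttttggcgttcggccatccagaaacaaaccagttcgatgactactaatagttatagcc
The Hoxa2 stretch held 6 CpG dinucleotides and 1 TGATNNAT match. The Hoxa5 stretch held 28 CpG and the Hoxa6 stretch 24, and neither held a match, so Hoxa2 and Hoxa5 did not share these features. The Hox windows available were mostly of Hoxa and Hoxd genes, with few of Hoxb and Hoxc, and included Hoxb8. They were rich in CpG, with a median of 12.5 over 24 windows of 22 genes against 6 over all 32851 windows. The TGATNNAT site was in 4 of 24 Hox windows and 7.68% of all windows, the AGGTCA half-site in 6 of 24 and 14.0%, and TATAAA in 4 of 24 and 12.4%.

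Hoxa3 and Hoxa4, which act in the pharyngeal arches, hindbrain and neck, lay between the strongest members. Hoxa3 was at 6.81, 6.51 and 6.66 on naive and 7.21, 7.52 and 7.50 on primed arrays, and so crossed the cutoff (measured difference 0.76, SE 0.09, limma adjusted p 4.1e-05; at least 1.33-fold against the cutoff). Hoxa4 was above background throughout, at 8.48, 8.03 and 8.03 on naive and 8.71, 8.79 and 8.78 on primed arrays (0.58, SE 0.10, limma adjusted p 0.00069). Naive array 1 was the nearest to the primed values, and without it the Hoxa4 difference was 0.73.

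Of the middle and posterior Hoxa genes, those of paralogs 7, 9 and 10 rose. Hoxa7, a trunk gene, went from 7.31, 7.20 and 7.25 to 7.46, 7.68 and 7.61 (0.33, SE 0.06, limma adjusted p 0.0013). Hoxa9, a regulator of blood progenitors and limbs, was below the cutoff on all naive arrays at 6.71, 6.58 and 6.66 and above it on primed arrays at 7.42, 7.19 and 7.16 (measured difference 0.61, SE 0.07, limma adjusted p 3.1e-05; at least 1.19-fold against the cutoff). Hoxa10, a gene of the reproductive tract and lumbar spine, was at 7.06, 6.55 and 6.87 on naive arrays, spread about the cutoff with array 2 lowest, and at 7.42, 7.43 and 7.26 on primed arrays (0.55, SE 0.11, limma adjusted p 0.0013). In each of these 3 genes every primed array lay above every naive array.

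The most posterior genes of the Hoxa cluster, which pattern the outer limb, did not pass. Hoxa11 was below the cutoff on all arrays, with means of 6.27 in both groups. Hoxa13 was at 6.96, 6.93 and 6.89 on naive and 6.97, 7.01 and 7.00 on primed arrays, close to the cutoff. Its groups did not overlap, but the difference of 0.06 (SE 0.05) gave an adjusted p of 0.38 in limma.

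In the Hoxb cluster the 3 lowest-numbered genes and Hoxb13 rose, and Hoxb4 did not pass. Hoxb1, a gene of rhombomere 4 in the hindbrain and a direct target of retinoic acid receptors, went from 8.26, 8.27 and 8.21 to 8.43, 8.53 and 8.56 (0.26, SE 0.06, limma adjusted p 0.0026). Hoxb2, its neighbour and a hindbrain gene, went from 7.16, 7.10 and 7.25 to 7.89, 7.79 and 7.61 (0.59, SE 0.08, limma adjusted p 5.1e-05). Hoxb3 went from 8.44, 8.19 and 8.38 to 8.55, 8.65 and 8.62 (0.27, SE 0.07, limma adjusted p 0.0074). Hoxb1, Hoxb2 and Hoxb3 were above background in both states, and their groups did not overlap.

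The middle of the Hoxb cluster was flat. Hoxb4, Hoxb5, Hoxb6 and Hoxb7 had differences between -0.03 and 0.09, and none passed. Hoxb7 was above background in both states, at 7.46, 7.40 and 7.28 on naive and 7.30, 7.31 and 7.45 on primed arrays, with overlap. Hoxb9 too was above background throughout and overlapped, at 7.77, 7.71 and 7.68 against 7.79, 7.68 and 7.91. The probe set shared by Hoxb7 and Hoxb8 read 6.08, 6.24 and 6.18 on naive and 6.30, 6.40 and 6.50 on primed arrays (0.23, SE 0.07, limma adjusted p 0.013), and its signal cannot be given to either gene. Hoxb13, which lies apart from the rest and acts in the tail and prostate, went from 6.68, 6.49 and 6.52 to 6.80, 6.84 and 6.86 (0.27, SE 0.06, limma adjusted p 0.0034), all below the cutoff.

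In the Hoxc cluster the genes of paralogs 4 to 6 passed and those of paralogs 8 to 13 did not. Hoxc5, a gene of the neck and upper thorax, had the largest measured difference outside the Hoxa cluster, from 6.72, 6.85 and 6.64 to 7.61, 7.90 and 7.60. It was the only Hoxc gene to cross the cutoff, with a measured difference of 0.97 (SE 0.08, limma adjusted p 2.8e-06), which against the mean cutoff of the naive arrays is at least 1.63-fold. Hoxc4 went from 5.68, 5.60 and 5.63 to 6.25, 6.10 and 6.05 (0.49, SE 0.06, limma adjusted p 5.3e-05), below the cutoff in both groups. Hoxc6, also below it, was at 6.64, 6.36 and 6.27 on naive and 6.75, 6.62 and 6.76 on primed arrays, and the groups overlapped. Its difference of 0.29 (SE 0.09, limma adjusted p 0.017) did not pass without naive array 2 (adjusted p 0.064), naive array 3 (0.069), primed array 1 (0.063) or primed array 3 (0.051). It also missed the threshold with arrays centred on their median (0.058). Hoxc8 to Hoxc13 had differences between -0.04 and 0.06, and 5 of the 6 were below the cutoff on all arrays, Hoxc8 being above it on primed array 2 alone.

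The Hoxd cluster had 0 genes past the threshold in limma, and 1 in each direction at an unadjusted p under 0.05 (Hoxd4 and Hoxd13). The anterior Hoxd1, Hoxd3 and Hoxd4 were below the cutoff on every array. Hoxd4 came nearest to a rise, at 6.50, 6.33 and 6.42 on naive and 6.45, 6.62 and 6.67 on primed arrays (0.16, SE 0.07, limma adjusted p 0.083), and passed without naive array 1 (0.046) or primed array 1 (0.019). Hoxd9 and Hoxd11, which act in the limbs and lower trunk, were above background in both states. Hoxd9 was at 7.41, 7.37 and 7.46 on naive and 7.33, 7.36 and 7.32 on primed arrays, a difference of -0.08 (SE 0.05, limma adjusted p 0.27) with every naive array higher. Hoxd11 was at 7.40, 7.56 and 7.40 against 7.37, 7.33 and 7.46, with overlap. Hoxd13, a gene of the digits, was below the cutoff at 6.59, 6.63 and 6.71 on naive and 6.44, 6.52 and 6.54 on primed arrays (-0.15, SE 0.06, limma adjusted p 0.052). It passed as higher in naive cells without naive array 1 (0.043), and with centred arrays both it (0.0089) and Hoxd9 (0.031) passed in that direction.

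**Figure D2:**
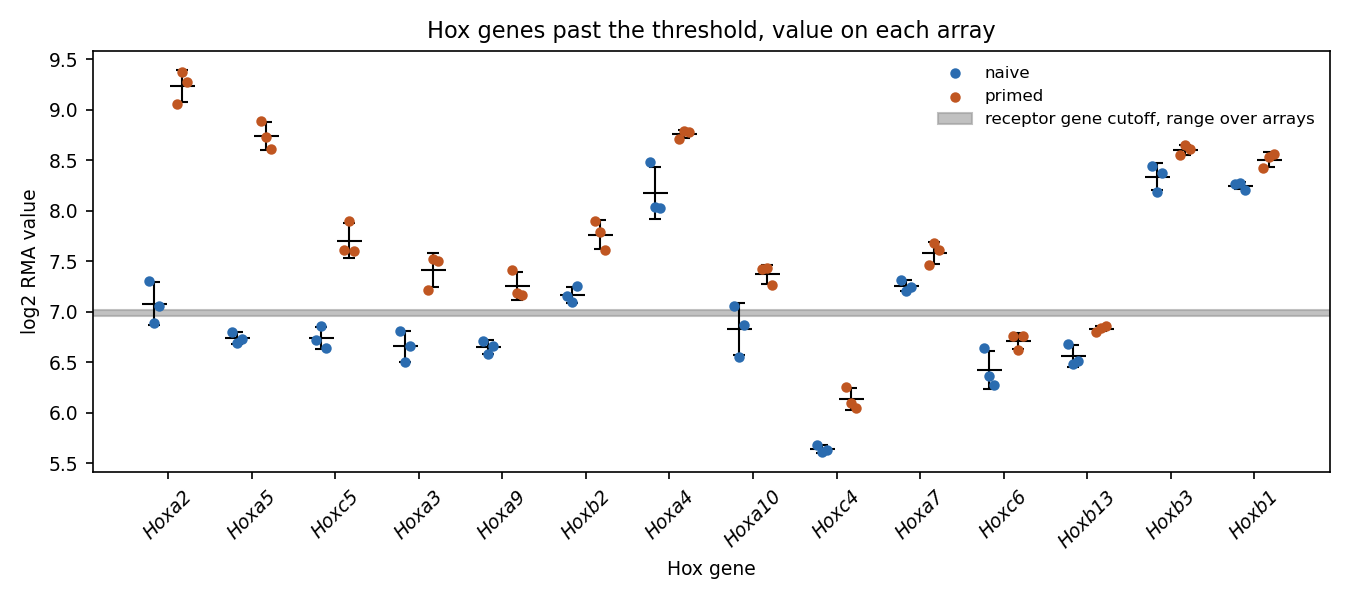
Value on each array (log2 RMA, vertical axis) of the 14 Hox genes past the threshold, ordered by their difference, with naive arrays in blue and primed arrays in orange; black bars are the mean and SD of 3 arrays and the grey band spans the background cutoffs, 6.96 to 7.02. Hoxa2, Hoxa5, Hoxc5, Hoxa3, Hoxa9 and Hoxa10 have naive means near or below the band and primed values above it. Hoxc4, Hoxc6 and Hoxb13 lie below it in both groups, and the groups of Hoxc6 alone overlap.

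Along the chromosome, the higher RNA in primed cells ran through the Hoxa cluster with gaps and did not stop at its end. Hoxaas2, a non-coding RNA gene between Hoxa2 and Hoxa3, was at 6.96, 7.30 and 7.23 on naive and 9.21, 9.06 and 8.95 on primed arrays (1.90, SE 0.09, limma adjusted p 2.4e-08). It overlaps the RefSeq bounds of Hoxa3, and the labels do not say whether the labelled RNA kept its strand. The unnamed gene 5730596B20Rik, also within those bounds and singled out after its values were seen, went from 6.57, 6.37 and 6.32 to 7.17, 7.17 and 7.06 (0.71, limma adjusted p 8.0e-06). Skap2, an adaptor of immune cell signalling and the nearest protein-coding gene beyond the 3′ end, went from 9.39, 9.38 and 9.36 to 10.68, 10.64 and 10.64 (1.27, SE 0.05, limma adjusted p 4.3e-09). At the other end, beyond Hoxa13, Hottip and Evx1 were below the cutoff on every array and did not pass (0.08 and -0.08). Further out, Hibadh was higher in primed cells (0.23, SE 0.05, limma adjusted p 0.0026), though its other probe set, with a mean of 4.78, gave -0.77. Tax1bp1, next to it, was higher in naive cells (-0.42, SE 0.06, limma adjusted p 0.00011).

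**Figure D3:**
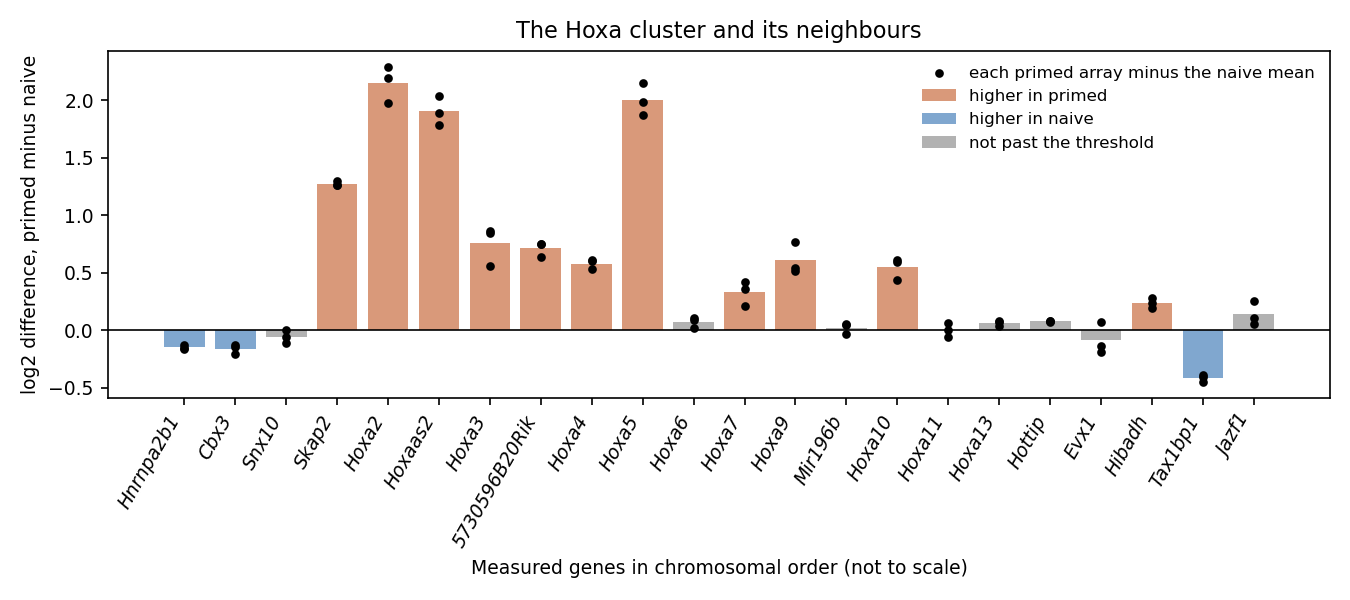
Difference between primed and naive cells (log2 RMA, vertical axis) for the measured genes of the Hoxa cluster, its non-coding RNAs and its nearest protein-coding neighbours in chromosomal order, not to scale; bars are group differences coloured by call and black points are each primed array minus the naive mean. Hoxa2 (2.15), Hoxaas2 (1.90) and Hoxa5 (2.0) stand highest, Skap2 (1.27) follows beside the low-numbered end, and Hoxa6, Mir196b, Hoxa11, Hoxa13 and Hottip lie near 0.

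Neighbours of the clusters did not share a direction. The 4 nearest protein-coding genes on each side of each cluster gave 29 measured of 32. Of these, 8 were higher in primed cells and 10 in naive cells, against 21.8% and 22.7% of all genes (median difference -0.05). Calcoco2, an autophagy receptor near Hoxb13, fell by 0.68 (SE 0.07, limma adjusted p 7.2e-06), and its other probe set gave -0.88. Lnpk, an endoplasmic reticulum protein gene next to Evx2 at the Hoxd cluster, rose by 0.56 (SE 0.06, limma adjusted p 8.0e-06) and Calcoco1, beside Hoxc13, by 0.51 (SE 0.06, limma adjusted p 1.8e-05). Lnpk thus passed beside a cluster with 0 genes past the threshold.

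Of 16 listed non-coding RNA genes inside the clusters 10 were measured, and Hoxaas2 alone passed (all genes: 21.8% higher in primed, 22.7% in naive). Without primed array 2 there were 2 that passed. The miRNAs of the clusters, which repress Hox messengers among other targets, include the miR-10 and miR-196 families. Their mature sequences are shown because the miR-196 family is known for its pairing with Hox messengers and Mir196b lies between Hoxa9 and Hoxa10, which rose. They are from RefSeq on GRCm38.p6, with the seed (bases 2 to 8) in capitals, and Mir196a-1 and Mir196a-2 encode the same miR-196a-5p.
miR-10a-5p: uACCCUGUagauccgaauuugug
miR-10b-5p: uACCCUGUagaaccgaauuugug
miR-196a-5p: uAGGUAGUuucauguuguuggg
miR-196b-5p: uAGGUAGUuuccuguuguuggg
Members of a family share the seed and differ at 1 base, counted from 1 at the 5′ end: U12A from miR-10a-5p to miR-10b-5p and A12C from miR-196a-5p to miR-196b-5p. The probe sets of their genes were below the cutoff on all arrays, with differences of 0.05 for Mir10a, 0.13 for Mir10b, 0.09 for Mir196a-1, 0.11 for Mir196a-2 and 0.02 for Mir196b. Mir196b read 6.41, 6.21 and 6.23 on naive and 6.25, 6.33 and 6.33 on primed arrays. Whether these probe sets read the mature miRNA or its precursor was not examined. Mir615, within the bounds of Hoxc5, was above background in both groups and did not follow Hoxc5 (difference -0.09).

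Hox proteins bind DNA with partners of the TALE homeodomain class, the Pbx, Meis and Pknox proteins. Of 8 measured, 5 were higher in primed cells and 1 in naive cells, against 21.8% and 22.7% of all genes (median difference 0.42). Meis2 had the largest, from 9.28 ± 0.07 to 11.57 ± 0.08 (SD, n = 3; difference 2.29, SE 0.06, limma adjusted p 3.0e-10). Pbx3 rose by 0.93 (SE 0.05), Pknox2 by 0.80 (SE 0.07) and Pbx4 by 0.68 (SE 0.07). Meis1 was the member that was higher in naive cells (-0.39, SE 0.07), named after its value was seen, and without primed array 1 there were 2 such members. Unlike most Hox genes, all 8 partners were above background in both groups.

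Genes of the retinoic acid pathway, which signals through receptors that act on Hox genes, moved in both directions. Of 18 measured, 9 were higher in primed cells and 3 in naive cells (median 0.14), against 21.8% and 22.7% of all genes. Rarb, a receptor that is itself a direct retinoic acid target, rose from 7.90 ± 0.07 to 11.05 ± 0.02 (SD, n = 3; 3.15, SE 0.05, limma adjusted p 1.6e-11). The binding proteins Crabp1 and Crabp2 rose by 2.84 (SE 0.08) and 2.24 (SE 0.08). Rdh10, an enzyme of retinoic acid synthesis, fell by 1.72 (SE 0.07). Retinoic acid itself was not measured.

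The genes of tail bud progenitors and the ParaHox cluster, relatives of the Hox genes that include direct activators of posterior Hox genes, gave 3 of 13 higher in primed cells and 4 in naive cells (median -0.04). For all genes the shares were 21.8% and 22.7%. Cdx4, a caudal factor upstream of Hox genes, fell by 1.54, from 9.04 ± 0.12 to 7.50 ± 0.09 (SD, n = 3; SE 0.07, limma adjusted p 1.7e-08). Cdx2 fell by 0.37 (SE 0.08). Gdf11, a signal for the trunk to tail transition, rose by 0.64 (SE 0.07) and Tbx6, a gene of presomitic mesoderm, by 0.29 (SE 0.06).

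Polycomb genes, whose products keep Hox clusters silent, were all above background and split in direction, with 10 of 30 higher in primed cells and 8 in naive cells (median -0.00). Pcgf5, of variant complex 1, fell by 1.13 (SE 0.07) and Rbbp7, a histone-binding subunit, by 0.76 (SE 0.06). Ezh1, a catalytic subunit of complex 2, rose by 0.70 (SE 0.05) and Pcgf1, of variant complex 1, by 0.68 (SE 0.05). Trithorax group genes, which oppose Polycomb, gave 3 of 15 higher in primed cells and 2 in naive cells (median -0.03). Both lists stand beside shares of 21.8% higher in primed and 22.7% in naive cells over all genes. Kdm6b, a demethylase of the Polycomb mark, rose by 0.55 (SE 0.06), Kat8, an acetyltransferase, rose by 0.21 (SE 0.05), and Men1, a subunit of methyltransferase complexes, fell by 0.24 (SE 0.06). Kmt2c, a methyltransferase, rose by 0.25 (SE 0.09, limma adjusted p 0.039). That call was lost without naive array 1 (0.15) or 3 (0.095), without primed array 1 (0.14) or 2 (0.089), and with centred arrays (0.13). Without naive array 3, only 1 Trithorax gene was higher in naive cells.

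Genes that mark forebrain, midbrain and hindbrain position gave 6 of 15 higher in primed cells and 2 in naive cells (median 0.12). Shares over all genes were 21.8% and 22.7%. Pax6, a regulator of eye, forebrain and hindbrain, rose from 6.56 ± 0.10, below the cutoff, to 8.85 ± 0.20 (SD, n = 3; 2.29, SE 0.09, limma adjusted p 5.7e-09). Otx2, of forebrain and midbrain and of the primed state, rose by 0.92 (SE 0.05), En2, of the midbrain to hindbrain border, by 0.80 (SE 0.07) and Irx3 by 0.68 (SE 0.07). The 2 that were higher in naive cells were Fgf8 (-0.60, SE 0.06) and Gbx2 (-0.38, SE 0.07), named after their values were seen. Egr2, the activator of Hoxa2 and Hoxb2 in rhombomeres 3 and 5, did not pass (0.11).

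**Figure D4:**
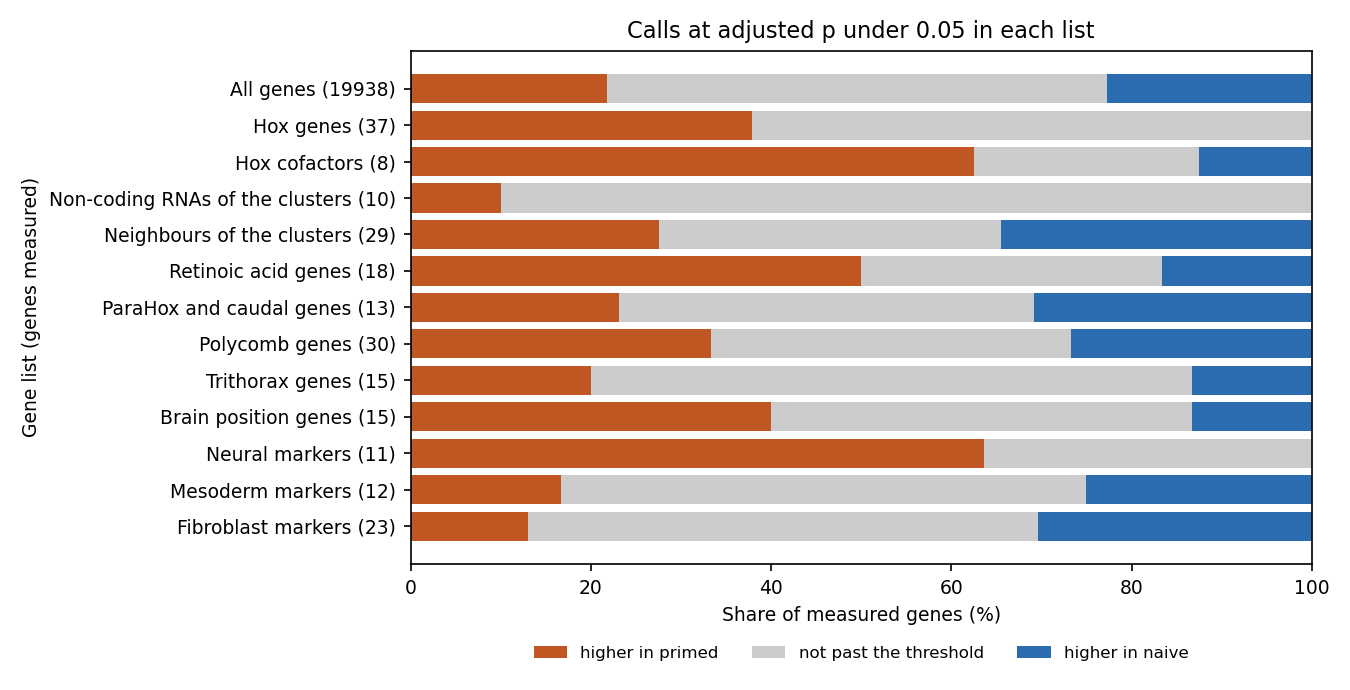
Share of the measured genes of each list (horizontal axis, %) that were higher in primed (orange), higher in naive (blue) or not past an adjusted p under 0.05 in limma (grey), with the number measured in parentheses. The Hox bar has 14 of 37 in orange and no blue, against 21.8% and 22.7% over all genes, and the neural markers (7 of 11) and non-coding RNAs of the clusters (1 of 10) are the other lists without blue.

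Markers of other cell types, set against 21.8% higher in primed and 22.7% in naive cells over all genes, were read beside the Hox genes. Their part in the Hox differences was not tested. Neural progenitor markers moved with them: 7 of 11 were higher in primed and 0 in naive cells (median 0.45), and without naive array 1 or primed array 1, 1 was higher in naive cells. Their mean level lay between 8.02 and 8.06 on naive arrays and between 8.57 and 8.67 on primed arrays. Pax6 (2.29), Dcx (0.92), Sox21 (0.88) and Fabp7 (0.87) rose, and Zic1 was below the cutoff on all arrays. Primitive streak and mesoderm markers gave 2 of 12 higher in primed cells and 3 in naive cells, with mean levels between 7.33 and 7.42 on naive arrays and between 7.17 and 7.21 on primed arrays. Eomes fell by 2.2 and Hand1 by 0.60, Foxc1 rose by 0.58 and Tbx6 by 0.29, and Mesp1, Meox1, Foxc2, Kdr and Pax3 were below the cutoff throughout.

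Fibroblasts, which can carry Hox RNA and which the feeders of the primed cultures could add, were read through 24 markers, of which 23 were measured. Their mean level lay between 7.80 and 7.82 on naive arrays and between 7.82 and 7.85 on primed arrays. Of the 23, 3 were higher in primed and 7 in naive cells (median -0.09), against 21.8% and 22.7% of all genes. Dcn rose by 2.89 and Tbx5 by 0.59, whereas Col1a1 fell by 0.76 and Twist1 by 0.49. Lum, Postn, Prrx1, Fap, Tbx15 and Tbx18 were below the cutoff on all 6 arrays.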

How the data were processed

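RNA of 6 cultures was read on Affymetrix gene arrays. The deposited values are log2 values that the authors made with RMA in Partek 6.6, per the submitters' processing notes. Its settings and the genome build: not given in the sources used here. RMA compresses the differences of dim genes, and the table has no detection calls, which bears on most Hox genes. Gene names came from GEO's platform annotation and RefSeq (21698 of 21789 with 1 symbol matched by gene ID). The brightest probe set stood for a gene. The groups came from the cell type labels and the replicate numbers from the titles. Groups were tested two-sided with lmFit and eBayes of limma 3.58.1 (R 4.3.3), with no covariates or added normalization and Benjamini-Hochberg adjustment over 19938 genes. The test was checked on simulated data. No array was left out.

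The members and gene lists were chosen with earlier results of these data known. Array values are given for the 12 largest differences past the threshold without overlap and for Hox genes above background in both groups. Each list has the 4 largest differences past the threshold named, or all of them where fewer passed. Other genes were named after their values were seen. Alternatives covered scaling, filters, probe set choice, variance models, thresholds, the replicate number and single arrays.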

Additional observations from a re-analysis of the deposited data

How the results depend on the processing

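No Hox gene past the threshold changed sign under any alternative run. The count of Hox genes higher in primed cells, 14, ranged from 13 to 15 over the scalings, probe set choices, variance models, left-out arrays and an adjusted p under 0.01. It was 5 with genes under the 40th percentile left out (Hoxa 3, Hoxb 2, Hoxc 0) and 2 at a minimum of 2-fold (Hoxa 2, Hoxb 0, Hoxc 0). Centred arrays put 2 Hox genes higher in naive cells, both Hoxd, and array weights put 1, also Hoxd. In the Hoxd cluster 1 was higher in primed cells with quantile normalization and with array weights. With single arrays left out, Hox genes higher in naive cells numbered 0 to 1, as did Hoxd genes in each direction. Low signal limits the calls: Hox genes above background numbered 24 in naive and 28 in primed cells at the 90th percentile of receptor genes, and 3 and 5 at the 99th.

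At a minimum of 2-fold, counts higher in primed and in naive cells fell to 340 and 367 over all genes, 1 and 0 of the Hox partners, 0 and 1 of the ParaHox and caudal genes, 0 and 1 of the Polycomb genes, 0 and 0 of the Trithorax genes, 1 and 0 of the brain position genes and 1 and 0 of the neighbours, and 4 retinoic acid genes were higher in primed cells. Of genes higher in naive cells, centring gave 2 Hox partners, 4 Trithorax genes and 1 non-coding RNA, the 40th percentile filter left 2 ParaHox and caudal genes and 1 retinoic acid gene, and an adjusted p under 0.01 left 1 Trithorax gene. Quantile normalization gave 2 non-coding RNAs higher in primed cells. Single arrays moved the partners higher in naive cells between 1 and 2, the Trithorax genes between 1 and 2, and the non-coding RNAs higher in primed cells between 1 and 2. Apart from the thresholds and the filter, which test less or ask for more, the cause was not tested.

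No pairing by the replicate numbers of the titles was seen in the values. Same-numbered arrays had correlations of their deviations from the group means of -0.11, 0.00 and -0.02. Whether same-numbered cultures were handled together is not stated. With the replicate number as a block, 14 Hox genes were higher in primed cells and 0 in naive cells, and over all genes 4172 and 4344.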
